A study of Schizosaccharomyces pombe with 20 samples.

Results

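The 33 genes described here encode chromatin remodellers, histone-modifying enzymes and histone chaperones of fission yeast, Schizosaccharomyces pombe. They are a list of names looked up among the 5007 genes of the deposited table, and all 33 were found there. The list was chosen with earlier results of these data known, so counts over it are given as a description and are no test. By complex and role they fall into 7 groups, with 5 genes of the SWI/SNF and RSC remodellers, 3 of INO80 and SWR1, 4 of the CHD1 and Fun30 families, 6 of histone acetylation, 7 of histone deacetylation, 4 of histone methylation and demethylation, and 4 histone chaperones. RNA was sequenced from leo1Δ cells (strain PB2423, labelled leo1D) and from wild-type cells (strain PB1623, labelled wt), both mat1-M smt-0. The mutant lacks leo1, which encodes a subunit of the Paf1 complex, and each genotype was represented by 1 strain. Cultures grown in pombe minimal glutamate medium were washed into the same medium without nitrogen and sampled at 0, 8, 24 and 48 h and at 2 weeks. Each genotype and time had 2 libraries of rRNA-depleted RNA, described as biological duplicates, which makes 20 libraries in 10 groups.

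Remodellers use ATP to slide, evict or exchange nucleosomes, and so set which stretches of DNA are open to transcription. Acetyltransferases and deacetylases add and remove acetyl groups on histone tails, methyltransferases and demethylases do the same with methyl groups, and chaperones carry histones on and off DNA. The Paf1 complex travels with elongating RNA polymerase II, and in budding yeast it is needed for histone methylation by Set1. Fission yeast starved of nitrogen stops dividing, enters quiescence and rebuilds its transcriptome.

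For each gene and time the authors' deposited table gives a log2 fold change of leo1Δ over wild type, so that a positive value means higher in leo1Δ, with a false discovery rate (FDR) from their edgeR likelihood ratio test over all genes. A gene is said to be called, or to have risen or fallen, where that FDR was under 0.05. Values of single libraries were not analysed here, so the spread of the duplicates cannot be shown and depth is unknown. An approximate standard error (SE) was taken as the size of the fold change over the square root of its likelihood ratio. It had a median of 0.25 on the log2 scale over the 33 genes, ranged between 0.20 and 0.49, and differed within a gene by at most 1.05 times over the 5 times. Because it comes from the authors' model, this evenness does not show that the duplicates agreed equally well at every time. The SE of a difference, between genes or times, combined the 2 single SEs as if they were independent. That was not checked, and genes compared at the same time share libraries. The deleted gene was called lower at every time, with leo1 at -2.38, -1.76, -1.96, -1.88 and -2.05 from 0 h to 2 weeks. These values are a reduction and do not show that leo1 reads were absent in leo1Δ. The source of any remaining reads was not examined. RNA came from whole cultures, so a change within each cell and a change in the share of cells in a given state cannot be told apart. The paper's survival assay found a lower share of living cells in leo1Δ than in wild type at 2 weeks. Dead cells in the sequenced cultures were not measured here, so their part in the 2-week values was not tested.

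The chromatin genes differed most between the genotypes at 48 h. Of the 33, 7 were called higher in leo1Δ at that time (21.2%), against 5.57% of all genes called higher. None was called lower, against 8.21% of all genes. The 7 were ssr3 and ssr1, subunits of SWI/SNF and RSC; swr1, the SWR1 ATPase; hrp1 and hrp3, ATPases of the CHD1 family; set1, the histone H3 lysine 4 methyltransferase; and spt16, the large subunit of the FACT chaperone. At an unadjusted p under 0.05, 13 members were higher and 0 lower at 48 h, against 13.4% and 17.7% of all genes. The member median was 0.32, with 24 of 33 above 0, and the median of all genes was -0.065, with 45.9% above 0.

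At the other times edgeR called no member in either direction. In growing cells (0 h) the lowest member FDR was 0.474, while 0.16% of all genes were called higher and 0.32% lower. At an unadjusted p under 0.05, 1 member was higher at 0 h, the CAF-1 gene pcf3, and 0 were lower, against 3.4% and 5.17% of all genes. After 8 h the lowest member FDR was 0.320, for ssr1, with 0.0999% of all genes called higher and 1.34% lower. At the unadjusted threshold ssr1 was the 1 member higher at 8 h and 0 were lower, against 2.68% and 6.85% of all genes. After 24 h the lowest member FDR was 0.171, for set1, with 1.28% of all genes called higher and 3.77% lower. The unadjusted threshold was passed at 24 h by 2 members that were higher, set1 and spt16, and by 0 that were lower, against 8.47% and 12% of all genes. After 2 weeks the lowest member FDR was 0.0956, for hrp3, with 1.2% of all genes called higher and 2.3% lower. Here 3 members were higher at an unadjusted p under 0.05, hrp3, spt16 and the demethylase-family gene lsd2, and 0 were lower, against 7.57% and 8.13% of all genes. The absence of calls at these times does not show that the genes were alike in the genotypes.

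**Figure D1:**
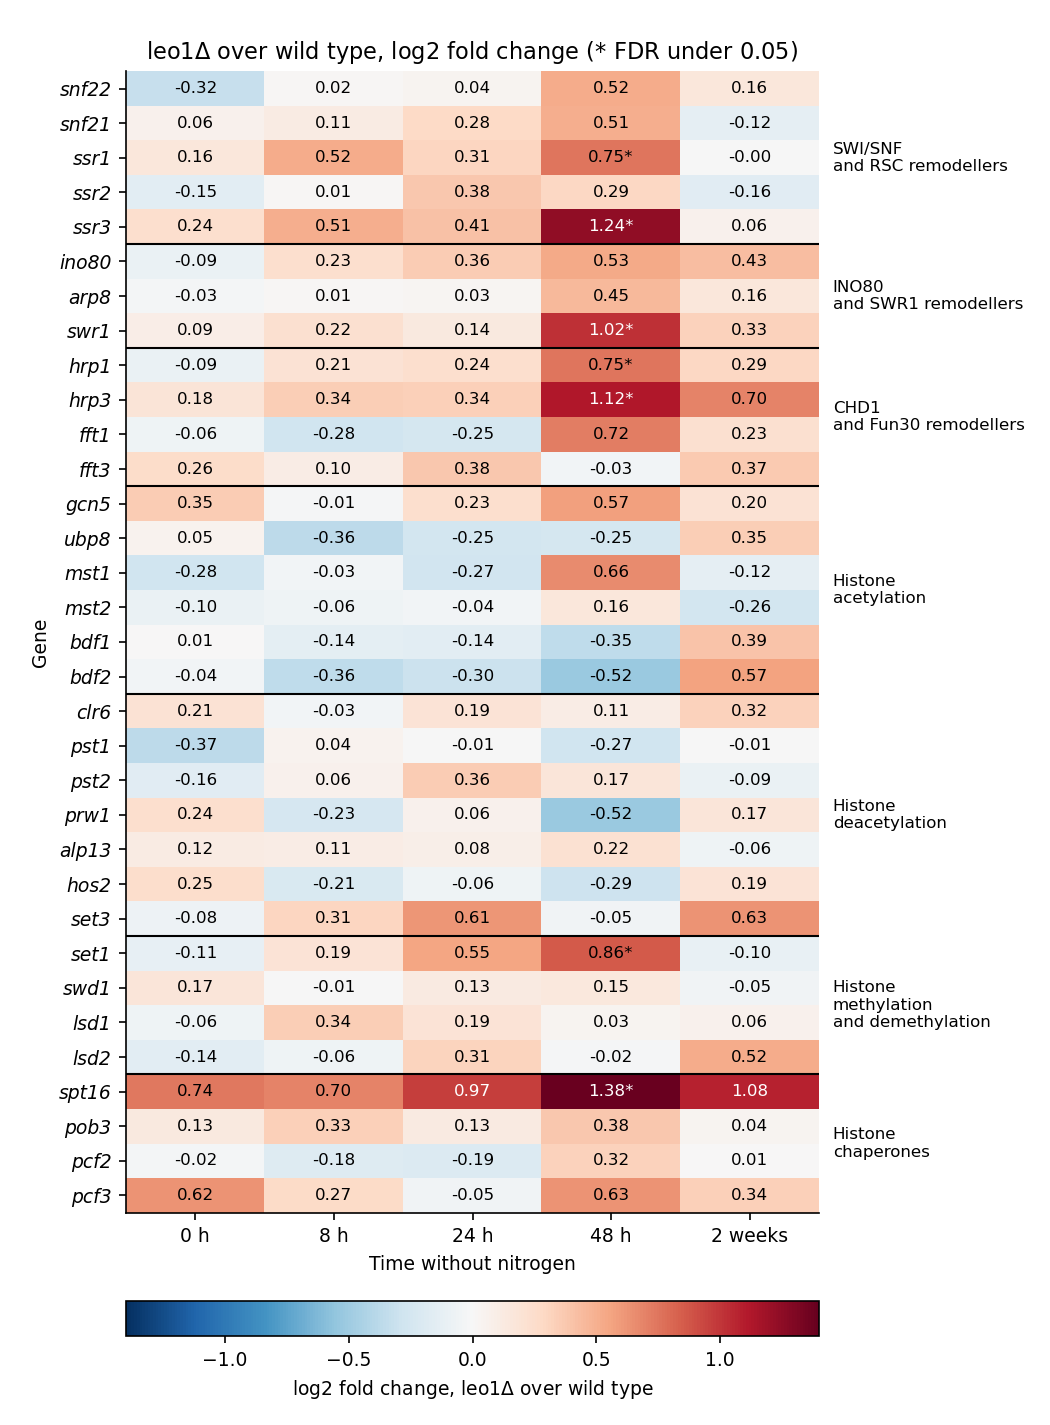
Log2 fold change of leo1Δ over wild type for the 33 chromatin genes (lines, by group) at the 5 times (columns), with a star where the FDR was under 0.05. The 7 stars all stand in the 48 h column, 5 of them among the 12 remodeller genes at the top, and the highest value is 1.38 for spt16.

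SWI/SNF and RSC are related remodellers that share several subunits in fission yeast. Of the 5 members, 2 rose in leo1Δ at 48 h, against 5.57% of all genes, and all 5 had values above 0, between 0.29 and 1.24, against 45.9% of all genes above 0. The shared subunit gene ssr3 had log2 fold changes of 0.24, 0.51, 0.41, 1.24 and 0.057 from 0 h to 2 weeks, with an approximate SE of 0.31. It was called at 48 h alone, at a 2.37-fold higher level in leo1Δ (FDR 0.00254), and its FDR at the other times was 0.909, 0.676, 0.476 and 0.961. The shared subunit gene ssr1 had 0.16, 0.52, 0.31, 0.75 and -0.0030, with an approximate SE of 0.21. It was 1.69-fold higher in leo1Δ at 48 h (FDR 0.00887), against an FDR of 0.909, 0.320, 0.430 and 0.995 at the other times. Another gene of this kind, ssr2, was not called, with 0.29 at 48 h (FDR 0.357) and a range of -0.16 to 0.38 over the times. The ATPase genes of the complexes had almost the same values at 48 h, 0.52 for snf22 of SWI/SNF (FDR 0.168) and 0.51 for snf21 of RSC (FDR 0.109), a difference of 0.0066 with an approximate SE of 0.35. At 0 h snf22 had -0.32 and snf21 0.058.

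The median of the 5 members moved through 0.058, 0.11, 0.31 and 0.52 up to 48 h. It was -0.0030 at 2 weeks, where 2 of the 5 genes were above 0. The 13 other genes of these complexes followed another course. Their median was 0.33 at 24 h, 0.18 at 48 h and 0.21 at 2 weeks, where 12 of the 13 were above 0. Part of the ssr3 gene, 53.9% of its length, overlaps taf4 on the opposite strand, and taf4 had 0.15 at 48 h (FDR 0.683). The overlap of ssr1 with a neighbour on the opposite strand covers 3.59% of its length.

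INO80 and SWR1 are large remodellers built around related ATPases, and SWR1 places the histone variant H2A.Z into nucleosomes. The SWR1 ATPase gene swr1 had log2 fold changes of 0.089, 0.22, 0.14, 1.02 and 0.33, with an approximate SE of 0.24. It was 2.03-fold higher in leo1Δ at 48 h (FDR 0.000907), with an FDR of 0.956, 0.877, 0.784 and 0.543 at the other times. The gene overlaps no other tested gene. The INO80 ATPase gene ino80 had 0.53 at 48 h, which was the uncalled value nearest to the threshold (FDR 0.0944), and a range of -0.090 to 0.53 over the times. The values of swr1 and ino80 at 48 h differed by 0.49, with an approximate SE of 0.33. An actin-related subunit gene of INO80, arp8, had 0.45 at 48 h (FDR 0.251) and a range of -0.028 to 0.45. All 3 genes were thus at their highest at 48 h, against 26.8% of all genes. Of the 3, 1 passed the test, against 5.57% of all genes called higher.

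The CHD1 family spaces nucleosomes over transcribed genes, and the Fun30 family holds the Fft remodellers. Both CHD1-family members rose in leo1Δ at 48 h, against 5.57% of all genes called higher. However, the call of hrp1 was lost at an FDR threshold of 0.01 and with p-values adjusted over the 5 times together (FDR 0.0716). The hrp3 gene had 0.18, 0.34, 0.34, 1.12 and 0.70, with an approximate SE of 0.25. It had the lowest FDR of any member at 48 h, 0.000368, at a 2.18-fold higher level in leo1Δ, and its FDR at the other times was 0.909, 0.769, 0.457 and 0.0956. Its paralogue hrp1 had -0.089, 0.21, 0.24, 0.75 and 0.29, with an approximate SE of 0.26. It was 1.68-fold higher in leo1Δ at 48 h (FDR 0.0341), with an FDR of 0.962, 0.899, 0.643 and 0.633 at the other times. The paralogues differed by 0.37 at 48 h, about the size of the approximate SE of that difference, 0.36.

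No Fun30-family gene among the members was called. At 48 h fft1 had 0.72 (FDR 0.129) and fft3 -0.033 (FDR 0.937), a difference of 0.75 with an approximate SE of 0.41 and no test. Over the times fft1 ranged between -0.28 and 0.72 and fft3 between -0.033 and 0.38. At 24 h their order was the other way round, with -0.25 for fft1 and 0.38 for fft3.

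Over the 12 remodeller genes together, 5 rose at 48 h, 0 fell and 11 had values above 0, beside 5.57% of all genes called higher, 8.21% called lower and 45.9% above 0. Their median was 0.015, 0.16, 0.29, 0.62 and 0.20 from 0 h to 2 weeks. Among the other 21 members 2 rose and 0 fell at 48 h, to be read against the same shares of all genes, 13 were above 0, and the median was 0.0097, -0.013, 0.079, 0.15 and 0.17. The 8 ATPase genes had a median of 0.62 at 48 h, with 3 called and 7 above 0. These groups were set side by side as a description, and the difference between them was not tested. Of the other genes in the remodeller groups, 2 of 13 for SWI/SNF and RSC rose at 48 h. For INO80 and SWR1 0 of 20 rose, and for CHD1 and Fun30 0 of 1. The counts of the members therefore do not stand for the whole complexes.

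**Figure D2:**
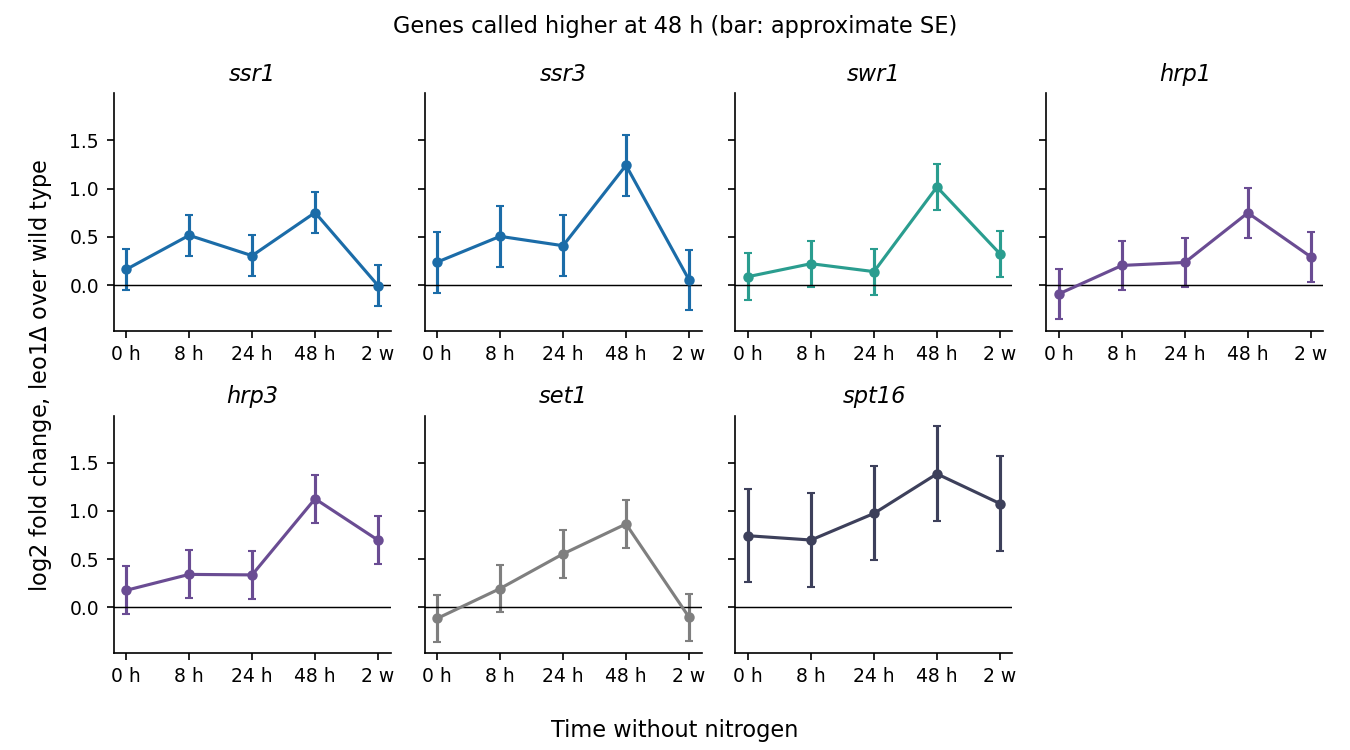
Log2 fold change of leo1Δ over wild type at the 5 times (evenly spaced, not to scale) for the 7 genes called at 48 h, with bars of 1 approximate SE. Every gene is highest at 48 h, between 0.75 and 1.38; at 2 weeks ssr1, ssr3 and set1 lie between -0.10 and 0.057, while hrp3 is at 0.70 and spt16 at 1.08.

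None of the 6 members of histone acetylation was called by edgeR at any time. At 48 h 5.57% of all genes were called higher and 8.21% lower. At 48 h, 2 of the 6, mst1 and gcn5, were higher and 0 lower at an unadjusted p under 0.05, against 13.4% and 17.7% of all genes. The 6 members comprise gcn5, the acetyltransferase of SAGA, ubp8, the SAGA deubiquitinase, mst1, the acetyltransferase of NuA4, mst2, which acetylates histone H3, and the genes of the double bromodomain proteins bdf1 and bdf2, which bind acetylated histones. At 48 h mst1 had 0.66 (FDR 0.128) and gcn5 0.57 (FDR 0.159), which were the highest values of the group. The lowest were bdf2 at -0.52 (FDR 0.225) and bdf1 at -0.35 (FDR 0.430). Between these lay mst2 at 0.16 (FDR 0.634) and ubp8 at -0.25 (FDR 0.450). The group median at 48 h was -0.044.

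The bromodomain genes had their lowest values at 48 h and their highest at 2 weeks. From 0 h to 2 weeks bdf2 had -0.037, -0.36, -0.30, -0.52 and 0.57, with an approximate SE of 0.30, and bdf1 had 0.0097, -0.14, -0.14, -0.35 and 0.39, with an approximate SE of 0.31. The value at 2 weeks exceeded that at 48 h by 1.08 for bdf2, with an approximate SE of 0.43, and by 0.75 for bdf1, with 0.44. Neither gene was called at any time, and no change between times was tested.

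The other acetylation genes ranged over the times between -0.28 and 0.66 for mst1, -0.013 and 0.57 for gcn5, -0.26 and 0.16 for mst2, and -0.36 and 0.35 for ubp8. The catalytic gcn5 and the deubiquitinase ubp8, both of SAGA, differed by 0.82 at 48 h, with an approximate SE of 0.37. The ubp8 gene overlaps mcp7 on the opposite strand over 28.0% of its length, and mcp7 had 2.35 at 48 h (FDR 1.15e-08). The mst1 gene shares 63.0% of its length with rpm2 on the opposite strand, which was called higher at 48 h, at 0.88 (FDR 0.0142).

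Nor did any of the 7 members of histone deacetylation pass the edgeR test. At every time 0 of the 7 were called, with 0 also at an unadjusted p under 0.05. At 48 h their values lay between -0.52 and 0.22, with a median of -0.053 and 3 above 0. Of all genes at 48 h, 5.57% were called higher, 8.21% were called lower and 45.9% were above 0. At the unadjusted threshold the shares were 13.4% and 17.7%. With 7 genes, these counts are not a result about deacetylation genes. The gene clr6, a class I deacetylase, had 0.11 at 48 h (FDR 0.773) and a range of -0.034 to 0.32. Its Sin3-family scaffold genes were pst1 at -0.27 (FDR 0.466, range -0.37 to 0.044) and pst2 at 0.17 (FDR 0.556, range -0.16 to 0.36), and these differed by 0.44 with an approximate SE of 0.32. The gene alp13, for a chromodomain subunit of Clr6 complex II, had 0.22 (FDR 0.557) and a range of -0.062 to 0.22.

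The WD-repeat subunit gene prw1 had the lowest value of all 33 members at 48 h, -0.52, with a wide approximate SE of 0.47 (FDR 0.439, range -0.52 to 0.24). The whole of prw1 lies within the overlap with cta5 on the opposite strand, which had -0.47 (FDR 0.193). In the Set3 complex the deacetylase gene hos2 had -0.29 (FDR 0.401, range -0.29 to 0.25). The gene set3, for a subunit with PHD and SET domains, had -0.053 (FDR 0.929). Over the times set3 ranged between -0.076 and 0.63, with 0.61 at 24 h (FDR 0.283) and 0.63 at 2 weeks (FDR 0.352).

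Of the 4 members of the methylation group set1 alone rose, at 48 h, against 5.57% of all genes called higher. It encodes the enzyme that methylates histone H3 on lysine 4, a mark of active promoters. From 0 h to 2 weeks set1 had -0.11, 0.19, 0.55, 0.86 and -0.10, with an approximate SE of 0.25. It was 1.82-fold higher in leo1Δ at 48 h (FDR 0.00828), and its FDR at the other times was 0.938, 0.899, 0.171 and 0.895. Its complex partner swd1 was not called, with 0.15 at 48 h (FDR 0.657) and a range of -0.051 to 0.17, and set1 exceeded swd1 by 0.71 with an approximate SE of 0.33.

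The genes of the LSD1 family, named for a demethylase in mammals, had values near 0 at 48 h, 0.035 for lsd1 (FDR 0.940) and -0.015 for lsd2 (FDR 0.972). At 2 weeks lsd2 had 0.52 (unadjusted p 0.0346, FDR 0.268) and lsd1 0.056, and over the times they ranged between -0.14 and 0.52 and between -0.064 and 0.34. The set1 gene overlaps no other tested gene, and the same holds for swd1, lsd1 and lsd2.

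Among the chaperones spt16 had the highest value of all 33 members at 48 h and also the widest approximate SE. FACT, of which it is the large subunit, takes nucleosomes apart ahead of the polymerase and rebuilds them behind it. The gene had 0.74, 0.70, 0.97, 1.38 and 1.08 from 0 h to 2 weeks, with an approximate SE of 0.49. At 48 h it was 2.61-fold higher in leo1Δ, with an FDR of 0.0406 that lies just inside the threshold, and its FDR at the other times was 0.714, 0.745, 0.231 and 0.241. The call was lost at an FDR threshold of 0.01 and with p-values adjusted over the 5 times together (FDR 0.0858). Its values were above 1 approximate SE at every time, which is a low bar. At 0 and 8 h the unadjusted edgeR p was 0.124 and 0.148. The whole of spt16 overlaps nop2 on the opposite strand, and nop2 was also called higher at 48 h, at 0.76 (FDR 0.0275).

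The other FACT gene, pob3, had 0.38 at 48 h (FDR 0.183) and a range of 0.043 to 0.38, and spt16 exceeded it by 1.00 with an approximate SE of 0.53. The CAF-1 chaperone places newly made histones behind the replication fork. Its genes pcf3 and pcf2 had 0.63 (FDR 0.110) and 0.32 (FDR 0.463) at 48 h. Over the times pcf3 ranged between -0.051 and 0.63, with 0.62 already in growing cells (unadjusted p 0.0274, FDR 0.474), and pcf2 between -0.19 and 0.32.

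**Figure D3:**
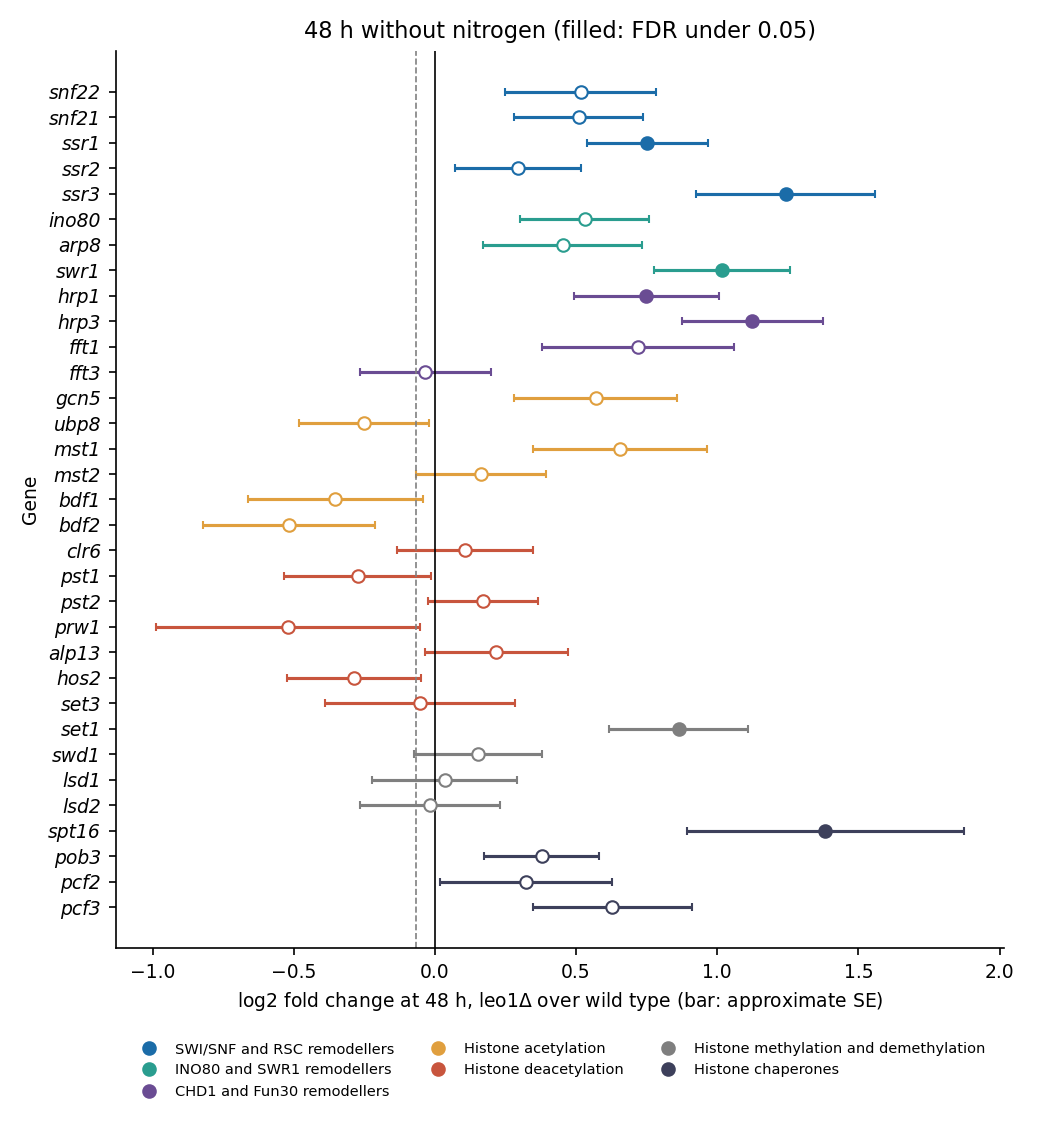
Log2 fold change of leo1Δ over wild type at 48 h for the 33 chromatin genes, coloured by group, with bars of 1 approximate SE, filled points where the FDR was under 0.05 and a dashed line at the median of all 5007 genes (-0.065). Of the 12 remodeller genes, 11 lie above 0, while the 7 deacetylation members lie between -0.52 and 0.22. The 14 other deacetylation genes, not drawn, had a median of 0.31, with 10 above 0 and 3 called higher.

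The time course was read as a description, since values of single libraries are needed to test a change between times. The highest of the 5 values fell at 48 h in 19 of the 33 members (57.6%), against 26.8% of all genes, and in 10 of the 12 remodeller genes (83.3%). The exceptions among the remodellers were ssr2 and fft3, which had their highest value at 24 h. Of the other 21 members, 9 were highest at 48 h (42.9%). The 7 called genes were chosen by their 48 h value, so their lower values at the other times follow in part from that choice. Among them the value at 2 weeks lay below that at 48 h by more than 2 approximate SE for ssr3 (-1.18, SE 0.44), set1 (-0.96, SE 0.35), ssr1 (-0.76, SE 0.30) and swr1 (-0.69, SE 0.34). The differences for hrp1 (-0.46, SE 0.36), hrp3 (-0.43, SE 0.35) and spt16 (-0.31, SE 0.69) were smaller.

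Beside the 33 members, 103 other genes of the same complexes and activities were measured, of 105 listed. This list too was chosen with earlier results of these data known, so its counts are a description. At 48 h, 11 of these rose (10.7%) and 0 fell, with a median of 0.25, against 5.57% and 8.21% of all genes and an all-gene median of -0.065. The 11 include ssr4 at 0.66, another subunit shared by SWI/SNF and RSC, and snf5 at 0.76, a SWI/SNF subunit. In the deacetylation complexes cph2 rose by 0.74, dep1 by 0.71 and snt1 by 0.72, where no member had been called. The others were spt7 of SAGA at 0.81, the JmjC-domain gene jmj2 at 0.81, the histone H2B ubiquitin ligase gene brl2 at 0.95, and the chaperone genes spt6 at 0.76, nap2 at 0.96 and chz1 at 0.79.

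By group, the other genes called higher at 48 h were 2 of 13 for SWI/SNF and RSC, 0 of 20 for INO80 and SWR1, 1 of 24 for acetylation, 3 of 14 for deacetylation, 2 of 16 for methylation and 3 of 15 for chaperones. Against the 5.57% of all genes called higher, counts this small are not results about the single groups, and those of acetylation and of INO80 and SWR1 lie below that share. The other INO80 and SWR1 subunits gave no edgeR call, and at an unadjusted p under 0.05 had 2 of the 20 higher and 0 lower, against 13.4% and 17.7% of all genes, with a median of 0.23 and 14 above 0. The remaining gene of the CHD1 and Fun30 group, fft2, had 0.38 at 48 h and was called at 2 weeks, at 0.83 (FDR 0.0157). At 0 and 8 h none of the 103 was called in either direction by edgeR, with 1 higher and 2 lower, and 4 higher and 5 lower, at an unadjusted p under 0.05. At 24 h rsc9, nap1 and chz1 rose by 0.72, 0.74 and 0.73, which is 2.91% of the 103 against 1.28% of all genes. The genes that fell were swc2 of SWR1 at 24 h (-0.84), sds3 of the Clr6 complexes at 24 h (-1.11) and again at 2 weeks (-1.16), and rxt3 of the same complexes at 2 weeks (-1.14). At both times 2 of the 103 fell (1.94%), against 3.77% of all genes at 24 h and 2.3% at 2 weeks, and the single rise at 2 weeks (0.971%) stands against 1.2%.

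**Figure D4:**
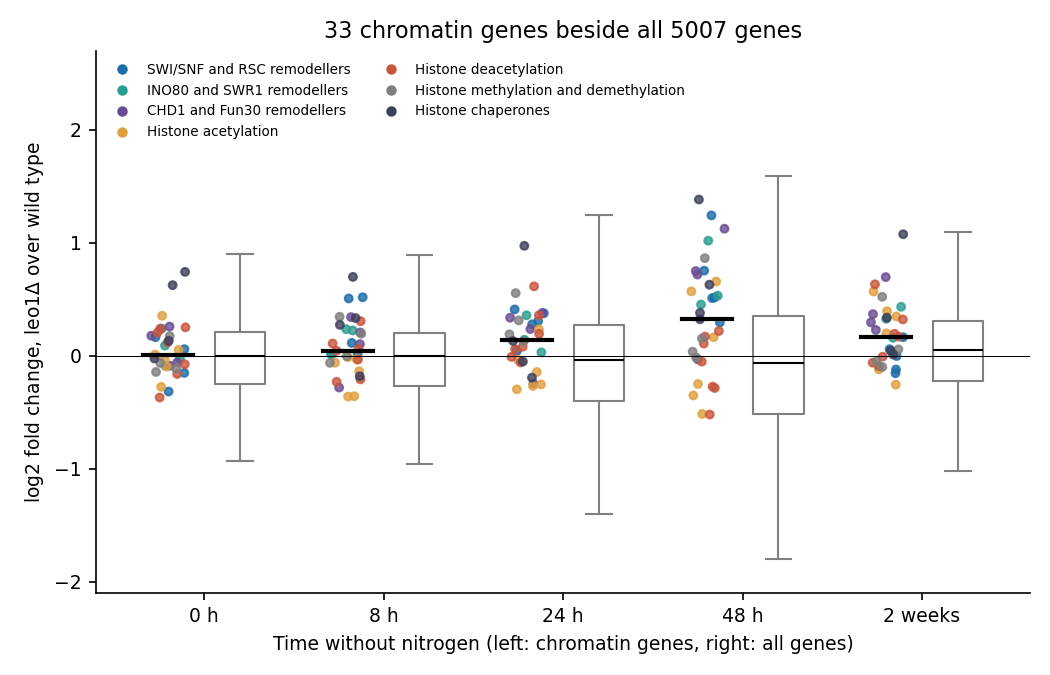
Log2 fold change of leo1Δ over wild type at each time for the 33 chromatin genes (points by group, bar at their median) beside all 5007 genes (box at the quartiles with the median, whiskers to 1.5 times the interquartile range, points beyond not drawn). At 48 h the medians are 0.32 for the chromatin genes and -0.065 for all genes, and at 0 h they are 0.0097 and -0.0051.

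The members were longer than the genes of the table as a whole and had a higher level. Their median length was 3307 bases, against 1816 over all genes, and their median level per length was 5.70, against 5.21, as log2 CPM per kb averaged over the libraries. By level per length snf21 was highest at 7.25 and mst1 lowest at 3.43. GC content was near that of other genes, with a median of 37.5% for the members and 36.8% over all genes. Across the 4978 genes with a matched annotation the fold change went with GC content at 0 h and 48 h (Spearman's rho -0.43 and -0.36) and at 2 weeks (0.31). With mean log2 CPM over all genes rho was -0.19, 0.25, 0.24, -0.19 and 0.39 from 0 h to 2 weeks. With gene length it was -0.10, 0.15, 0.23, 0.075 and 0.21. These are correlations across genes measured in the same libraries, and their part in the fold changes of the members was not tested. With the median of genes of like GC content (10 bins) subtracted, the member median at 48 h was 0.39, with 27 of 33 above 0. None of the 33 lies within 80 kb of a chromosome end, and none shares a 50-base window with another place in the genome.

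Of the 33 members, 14 overlap another tested gene on the opposite strand, which bears on ssr3, ssr1, hrp1 and spt16 among the called genes. No source used here says whether reads were counted by strand, and without that the reads of such pairs cannot be told apart. Among the 19 members without such an overlap, 3 were called higher at 48 h (15.8%), namely swr1, hrp3 and set1, against 5.32% of all genes without one. Their median at 48 h was 0.17, against -0.16 for all genes without an overlap. The 14 overlapping members had a median of 0.55, with 4 called (28.6%), against 0.030 and 5.94% for all overlapping genes.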

How the data were processed

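The authors aligned single-end reads with Bowtie2 to assembly ASM294v2, counted them per gene with featureCounts and compared leo1Δ with wild type at each time with edgeR. For tool versions, the use of strand and the minimum expression kept by their filter nothing is stated (not given in the sources used here). Per gene and time the deposited table holds a log2 fold change, a likelihood ratio (a score), a p-value and an FDR, with a mean log2 CPM and a gene length in bases, all as the authors computed them. No values per library were analysed here. These columns are the authors' own comparisons and were used as deposited because they are the only measurements in the table. Recomputing p from each likelihood ratio with a chi-square distribution gave the deposited p-values within 7.66e-15, and the FDR equals a Benjamini-Hochberg adjustment over all 5008 entries. The 1 entry that names no gene, which held 10.3% of the counts as judged from mean log2 CPM, was left out.

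Counts of called genes, medians, differences and the approximate SE were computed with Python 3.11.15, pandas 2.3.3, numpy 2.4.6 and scipy 1.17.1. The approximate SE was checked on simulated counts that had the same known spread for every gene. That check does not show how well it holds for these data. It served as a description, and no new test was made. GC content, gene overlaps and repeated windows came from assembly ASM294v3, matched for 4978 genes and not for 29, and no coordinates are given since the builds differ. The members and the lists of other complex genes were chosen with earlier results of these data known. Alternatives were stricter and looser FDR thresholds, a minimum fold of 1.5, other sets of genes in the adjustment, and scaling to all genes or to genes of like GC content, length or expression. Every member is named, those called at any time with all 5 values, and the other complex genes are named where called. Of the other complex genes listed, 2 were not found by name.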

Additional observations from a re-analysis of the deposited data

How the results depend on the processing

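The 7 genes called higher at 48 h became 5 at an FDR of 0.01 (1.52% of all genes), 8 at 0.1 (9.43%), 7 with a fold of at least 1.5 (5.43%), 7 without the lowest 25% of genes by mean expression (6.47%) and 5 with p-values adjusted over the 5 times together (3.04%). The genes that lost the call at 0.01 and in the joint adjustment were hrp1 and spt16, with a joint FDR of 0.0716 and 0.0858, and ino80 was the gene gained at 0.1. At 2 weeks 1 gene, hrp3, was called higher at an FDR of 0.1, where none was at 0.05. No member was called lower at any time under these alternatives. The median at 48 h lay between 0.19 and 0.51 when each group of genes was left out in turn. In alternatives added after seeing the data it was 0.17 without the members that overlap another tested gene, 0.42 with the median of genes of like length (10 bins) subtracted and 0.32 with that of genes of like mean expression (10 bins). The last of these moved hrp1 to 1.04 and hrp3 to 1.41 at 48 h, a shift larger than the approximate SE, and the 7 called genes kept a positive value under every scaling tried. The alternative without members that overlap any annotated gene left none, since all 33 overlap one.

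No paired analysis was possible because the table holds no values per library. For the same reason leaving out each replicate, DESeq2 with its size factors, and a fit without the filter on low counts were not run. Depth is unknown, and the smallest change called among the members was 0.75 on the log2 scale.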
